A study of Mus musculus with 4 samples.

Results

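*Omp*, *Stoml3*, *Stom*, *S100a5*, and *Calm2* encode 5 abundant proteins of olfactory sensory neurons (OSNs), and were followed through RNA-seq libraries of cells sorted by fluorescence from the main olfactory epithelium (MOE) of C57BL/6 mice. The genes were chosen by their TPM, a measure of relative transcript abundance, in the reporter-negative libraries, so their high levels there are a description and not a finding. They are 5 of the 24421 genes in the deposited values. GFP-negative and GFP-positive cells came from the TAAR enhancer 1-GFP transgenic line, and tdTomato-negative and tdTomato-positive cells from the TAAR enhancer 2-tdTomato transgenic line. In each transgene, the named enhancer of the *Taar* (trace amine-associated receptor) gene cluster was placed before the Hsp68 minimal promoter and the reporter. The reporter-negative cells carry the same transgene as the reporter-positive cells of their line, and each line was bred from 1 founder. The strain is that of the labels. The study's methods give C57BL/6J eggs for the transgenes, and its reporting summary a mixed background for the mice. The labels give all mice as adult, while the study's reporting summary gives juvenile ages for both lines.

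Each of the 4 groups has 1 library. Differences therefore have no replicate check, no p-values were calculated, and a gene is called higher or lower here when it changed at least 2-fold on the log2(TPM + 1) scale. TPM values are scaled for transcript length and sum to 1000000 in each library, so levels can be set side by side between genes, but the read depth cannot be known from them. The number of genes above 0 TPM ranged from 15096 to 16840. In GFP-positive cells the 10 highest genes held 31.5% of all TPM, against 5.72% to 9.44% in the other libraries, so that less of the fixed sum was left for other genes.

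Mature OSNs detect odorants with receptors on their cilia, which raise cAMP and open channels that let calcium enter. *Omp* (olfactory marker protein) is the classical marker of mature OSNs and encodes a cytosolic protein that binds cAMP. *Stoml3* and *Stom* encode membrane proteins of the stomatin family, which bind cholesterol, form oligomers, and modulate ion channels. *S100a5* encodes a small calcium-binding protein of the EF-hand type, and its expression in OSNs is known to depend on odor-evoked activity. *Calm2* encodes calmodulin, the calcium sensor that makes the olfactory cAMP-gated channel less sensitive to cAMP as calcium rises. Calmodulin is made in every cell type, and stomatin is also found outside neurons, as in red blood cells, whereas *Omp*, *Stoml3*, and *S100a5* are characteristic of OSNs.

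The 5 genes lie apart in the genome (GENCODE M21 annotation of GRCm38, the build also called mm10). *Omp* has a single exon on the minus strand of chromosome 7, from 98143359 to 98145502, and lies in an intron of *Capn5*, a calpain gene on the same strand. *Capn5* was at 12.4 and 12.8 TPM in GFP-negative and GFP-positive cells, and at 37.5 and 15.6 TPM in tdTomato-negative and tdTomato-positive cells. *Stoml3* (chromosome 3, 53488653 to 53508502, plus strand) and *Stom* (chromosome 2, 35313986 to 35336976, minus strand) have 7 exons each. *S100a5* (chromosome 3, 90608523 to 90611780, plus strand) has 3 exons, and its transcript of 431 bases is the shortest of the 5. *Calm2* (chromosome 17, 87433412 to 87446935, minus strand) has 6 exons. The principal transcripts of *Omp*, *Stom*, and *S100a5* share no 50-base window with the transcripts of another gene, and that of *Stoml3* shares 0.693% of its windows. *Calm2* shares 12.7% of its windows with 3 gene models known only by Gm numbers, and how the authors' tools divided such reads is not known.

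*Calm3* encodes the same protein as *Calm2*, and the coding sequences of both genes differ enough for their transcripts to be counted apart. The first 90 coding bases of each are given, with capitals at the 15 positions where they differ.
Calm2: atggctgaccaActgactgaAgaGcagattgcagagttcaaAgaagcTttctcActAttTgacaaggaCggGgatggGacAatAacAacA
Calm3: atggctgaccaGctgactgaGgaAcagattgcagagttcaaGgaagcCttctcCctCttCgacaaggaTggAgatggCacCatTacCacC
Over the whole coding length of 447 bases, 78 positions differ, and 74 of them are the last base of a codon. *Calm2* has 82.6% identity with *Calm3*, and no 50-base window of its transcript occurs in that gene.

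Promoter sequences were taken from RefSeq (GRCm38.p6), in which 3 of the 5 genes were matched. The 250 bases before the start site are given for the 2 stomatin genes, whose levels moved alike, and for *S100a5*, whose levels did not, with each CpG in capitals. The start sites are those of RefSeq, and that of *Stoml3* lies inside the gene as GENCODE annotates it, so the end of its stretch overlaps the first exon there. The stretches are chr3:53488457-53488706 on the plus strand for *Stoml3*, chr2:35337010-35337259 on the minus strand for *Stom*, and chr3:90608272-90608521 on the plus strand for *S100a5*.
Stoml3: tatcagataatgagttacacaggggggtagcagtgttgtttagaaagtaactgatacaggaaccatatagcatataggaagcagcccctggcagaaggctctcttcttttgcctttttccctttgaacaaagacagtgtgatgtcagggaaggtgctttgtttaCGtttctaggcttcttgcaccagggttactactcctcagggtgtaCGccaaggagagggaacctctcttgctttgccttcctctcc
Stom: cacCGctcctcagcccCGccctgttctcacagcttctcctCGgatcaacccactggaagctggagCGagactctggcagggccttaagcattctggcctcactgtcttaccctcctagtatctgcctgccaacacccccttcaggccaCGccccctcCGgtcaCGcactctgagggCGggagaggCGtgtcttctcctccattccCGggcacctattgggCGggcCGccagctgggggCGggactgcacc
S100a5: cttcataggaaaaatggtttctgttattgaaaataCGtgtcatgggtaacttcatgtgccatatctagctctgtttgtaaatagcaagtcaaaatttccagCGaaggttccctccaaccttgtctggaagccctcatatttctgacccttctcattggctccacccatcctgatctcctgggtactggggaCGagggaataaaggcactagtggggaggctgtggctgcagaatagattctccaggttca
The *Stom* promoter holds 13 CpGs and 65.2% G and C, while *Stoml3* and *S100a5* hold 2 and 3 CpGs with 46.8% and 46% G and C. The median of all 32851 promoters was 6 CpGs and 52.4% G and C. A core of the motif bound by EBF factors, CCCNNGGG, is in 11.8% of these promoters on either strand, and the homeodomain motif TAATTA in 4.84%. Neither is in the 3 stretches, which says only that these letters are not in these windows.

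The 5 transcripts were at nearly the same level in both reporter-negative libraries. *Omp* had the highest TPM of all genes in each, with 9584 TPM in GFP-negative and 10108 TPM in tdTomato-negative cells. *Stoml3* came next in each library, at 8815 and 8419 TPM. *S100a5* was the third gene of GFP-negative cells at 6636 TPM and the fourth of tdTomato-negative cells at 5667 TPM. These OSN genes stood above *Eef1a1*, which encodes a translation elongation factor used by all cells and was at 5454 and 5316 TPM. *Stom* was at 3485 and 4203 TPM, in rank 10 and rank 9. *Calm2* was at 3606 and 3585 TPM, in rank 9 and rank 12. Together the 5 genes made up 3.21% of all TPM in GFP-negative cells and 3.2% in tdTomato-negative cells. The order of *Omp*, *Stoml3*, and *S100a5* was the same in both libraries, whereas *Stom* and *Calm2* changed places. Other genes among the 10 highest of these libraries included *Tmsb4x*, *Tuba1a*, *Ptma*, *Bpifa1*, *Gfy*, and *Scgb1c1*.

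The largest log2 difference of the 5 between the reporter-negative libraries was 0.27, for *Stom*, which was higher in tdTomato-negative cells. *S100a5* was lower there by 0.23, and the differences of *Omp*, *Stoml3*, and *Calm2* were 0.077, -0.066, and -0.0087. None of the 5 differed 2-fold, while 17.1% of 13010 genes did, these being the genes that reached 10 TPM in 1 or more of the libraries. The 5 genes were chosen by their high TPM in both libraries, so this comparison cannot show that they were steadier than other genes. For 75 genes that reached 1000 TPM in each reporter-negative library, the median absolute difference was 0.13. These values are the nearest to a repeat measurement that the data hold, although the libraries come from different lines.

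**Figure D1:**
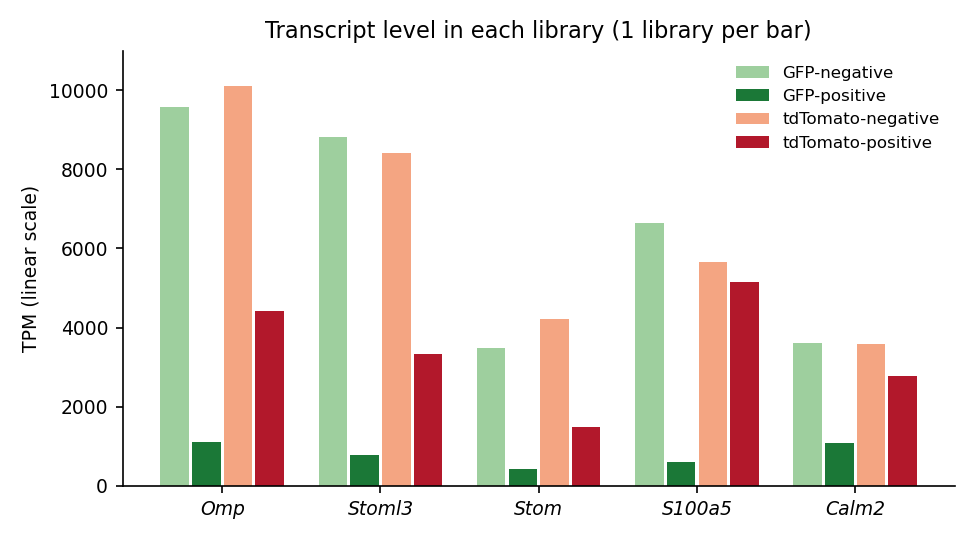
TPM of the 5 genes in each of the 4 libraries, on a linear axis that starts at 0, with 1 library per bar. The pale bars of the reporter-negative cells are alike in both lines, the dark green bars of GFP-positive cells are low for all 5 genes, and *S100a5* stands at 5146 TPM in tdTomato-positive cells, close to the 5667 TPM of tdTomato-negative cells.

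To see whether the cells sorted for activity of TAAR enhancer 1 contained these transcripts, GFP-positive cells were compared with GFP-negative cells. All 5 were lower in GFP-positive cells. *Stoml3* decreased from 8815 to 764 TPM, which is 11.5 times lower (log2 fold change -3.53). *S100a5* decreased from 6636 to 593 TPM, 11.2 times lower (log2 fold change -3.48). *Omp* decreased from 9584 to 1108 TPM and *Stom* from 3485 to 409.6 TPM, with log2 fold changes of -3.11 and -3.09. *Calm2* decreased least, from 3606 to 1084 TPM, 3.33 times lower (log2 fold change -1.73). The 4 genes other than *Calm2* thus fell by 8.51 to 11.5 times, more than *Calm2*.

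These counts have to be read against a library in which many genes were lower. Of the 13010 genes tested, 46.5% were at least 2-fold lower in GFP-positive cells, and the median log2 fold change was -0.92. When the libraries were scaled to each other by the median ratio of their genes, this share was 20.6%, the median of the 5 genes was -2.23, and 4 of the 5 were at least 2-fold lower. With this scaling the log2 fold changes were -2.64 for *Stoml3*, -2.60 for *S100a5*, -2.23 for *Omp*, -2.20 for *Stom*, and -0.85 for *Calm2*. Among the 100 highest genes of GFP-negative cells, 53% were at least 2-fold lower and the median was -1.14. The median of the 5 genes was -3.11. In bulk libraries, fewer cells of a type and less RNA per cell cannot be told apart. *Omp* was still gene 55 of GFP-positive cells, and *Calm2* gene 59, while *Stoml3*, *S100a5*, and *Stom* were in ranks 108, 146, and 221. The 5 genes made up 0.396% of all TPM in these cells.

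The same comparison for TAAR enhancer 2 gave a different picture. *Omp* was 4427 TPM in tdTomato-positive cells, 2.28 times lower than in tdTomato-negative cells (log2 fold change -1.19). *Stoml3* decreased to 3332 TPM, with a log2 fold change of -1.34, and *Stom* decreased most, to 1490 TPM, 2.82 times lower (log2 fold change -1.50). *Calm2* was at 2782 TPM and *S100a5* at 5146 TPM, with log2 fold changes of -0.37 and -0.14 that did not reach 2-fold. *S100a5* was the fourth highest gene in tdTomato-positive as in tdTomato-negative cells, and its difference was smaller than the 0.23 between both reporter-negative libraries. With 3 of the 5 genes at least 2-fold lower, the count stood against 19.9% of all genes tested and 34% of the 100 highest genes of tdTomato-negative cells. The medians were -1.19 for the 5 genes, -0.22 for all genes tested, and -0.82 for those 100 genes.

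In tdTomato-positive cells *S100a5* was the highest of the 5, followed by *Omp*, *Stoml3*, *Calm2*, and *Stom*, and it exceeded *Omp* in no other library. In GFP-positive cells the order was *Omp*, *Calm2*, *Stoml3*, *S100a5*, and *Stom*. The 5 genes made up 1.72% of TPM in tdTomato-positive cells. Each of the 5 was higher in tdTomato-positive than in GFP-positive cells, by log2 differences of 3.12 for *S100a5*, 2.12 for *Stoml3*, 2.0 for *Omp*, 1.86 for *Stom*, and 1.36 for *Calm2*.

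**Figure D2:**
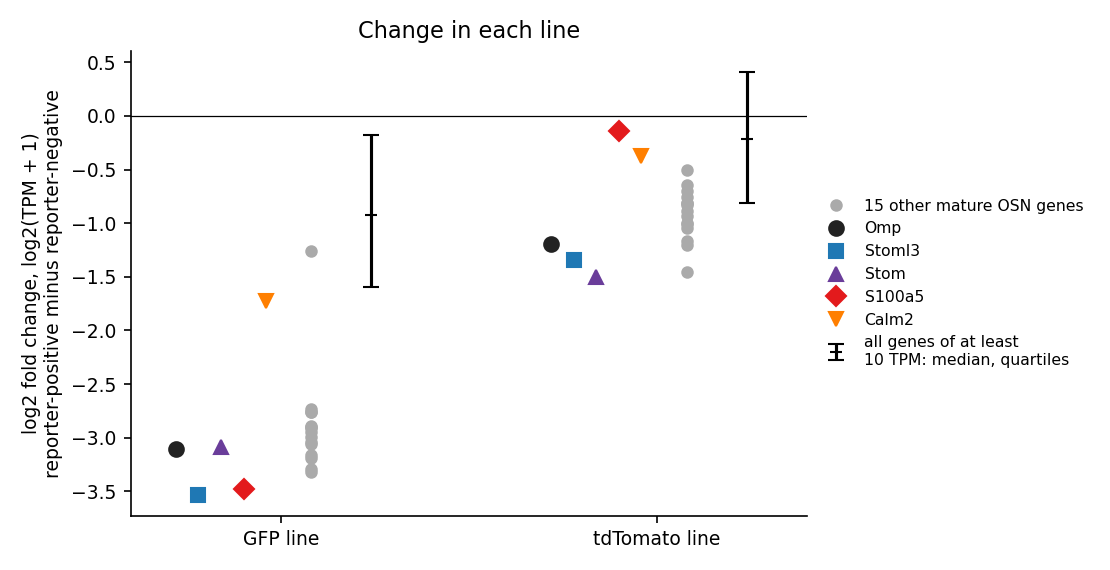
Log2 fold change of reporter-positive against reporter-negative cells in each line, on the log2(TPM + 1) scale. Coloured symbols are the 5 genes, grey points the 15 other mature OSN genes, and black marks the median and quartiles of 13010 genes. In the GFP line, 4 of the 5 genes lie at -3.09 or below, and in the tdTomato line *S100a5* at -0.14 lies above all grey points.

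As the total of each library is fixed, the level of each gene was also expressed relative to *Omp* in the same library, which no scaling of the library can change. *Stom* had nearly the same ratio to *Omp* in GFP-negative and GFP-positive cells, 0.364 and 0.37, and a lower ratio in tdTomato-positive than in tdTomato-negative cells, 0.337 against 0.416. *Stoml3* had 0.92 and 0.689 in the GFP line and 0.833 and 0.753 in the tdTomato line, so its ratio was lower in the reporter-positive cells of both. *Calm2* moved the other way in both lines, from 0.376 to 0.978 and from 0.355 to 0.628. *S100a5* had the largest change of the ratio in the tdTomato line, and in the opposite direction to that in the GFP line. Its ratio to *Omp* decreased from 0.692 to 0.535 in the GFP line and increased from 0.561 to 1.16 in the tdTomato line, log2 changes of -0.37 and 1.05.

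**Figure D3:**
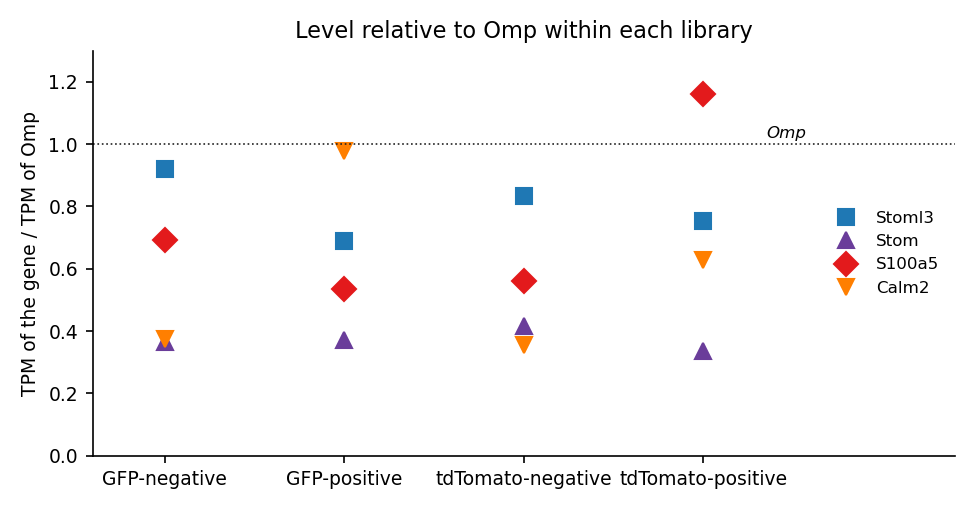
TPM of each gene divided by the TPM of *Omp* in the same library, on a linear axis, with the dotted line at the value of *Omp* itself. *Stom* lies between 0.337 and 0.416 in all 4 libraries, and *S100a5* crosses the dotted line in tdTomato-positive cells alone, at 1.16.

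A list of 15 other genes of mature OSNs, which holds none of the 5, was set beside them. It contains the genes for the olfactory G protein subunits (*Gnal* and *Gng13*), adenylyl cyclase 3 (*Adcy3*), the cAMP-gated and chloride channels, receptor transport proteins (*Rtp1* and *Rtp2*), and the vesicular glutamate transporter *Slc17a6*. All 15 were at least 2-fold lower in GFP-positive cells, against 46.5% of all genes tested. Their median log2 fold change was -2.95, and they ranged from -3.32 (*Cnga4*) to -1.26 (*Slc24a4*). *Stoml3* and *S100a5* lay below this range. In tdTomato-positive cells all 15 had lower TPM, 5 of them at least 2-fold, against 19.9% of all genes (3 with the median-ratio scaling, against 16.9%), with a median of -0.89 and a range from -1.46 (*Cnga4*) to -0.50 (*Slc17a6*). *Stom* lay just below this range, and *Calm2* and *S100a5* above it. Relative to the mean log2 TPM of the list, *S100a5* changed by -0.58 in the GFP line and 0.78 in the tdTomato line. *Omp* changed by -0.21 and -0.27, *Stoml3* by -0.62 and -0.42, *Stom* by -0.18 and -0.58, and *Calm2* by 1.17 and 0.55. Scaled in this way, no member was 2-fold lower in either line, against 6.99% of all genes in the GFP line and 11.1% in the tdTomato line.

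The lines were then set against each other as the log2 fold change in the tdTomato line minus that in the GFP line. This difference was 3.34 for *S100a5*, 2.19 for *Stoml3*, 1.92 for *Omp*, 1.59 for *Stom*, and 1.37 for *Calm2*. The median over all genes tested was 0.69, and it was also 0.69 for the 75 abundant genes described above. *S100a5* had the largest difference of these 75 genes, followed by *Ckb* (2.65), the brain type creatine kinase, and *Pcp4l1* (2.64), a small protein related to a regulator of calmodulin. *Stoml3* was in place 5, *Omp* in place 11, *Stom* in place 17, and *Calm2* in place 22. The minimum of 1000 TPM was chosen after the values were seen. The size of the difference depends on the scaling. Its median over the 5 genes was 1.92 with TPM as deposited and 1.19 with the median-ratio scaling. Scaled to the mature OSN genes it reversed to -0.066. *Omp*, *Stom*, and *Calm2* then had lower log2 fold changes in the tdTomato line than in the GFP line. Those of *Stoml3* and *S100a5* remained higher, with -0.58 in the GFP line and 0.78 in the tdTomato line for *S100a5*. The difference could not be tested with 1 library per group, and the enhancer, the reporter, the founder, and the sort cannot be told apart.

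**Figure D4:**
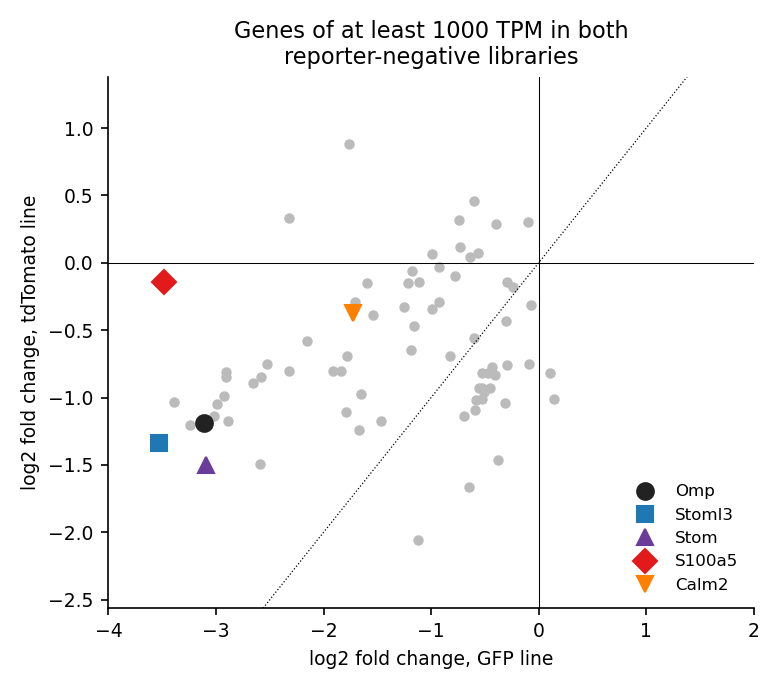
Log2 fold change in the GFP line (horizontal axis) and in the tdTomato line (vertical axis) for the 75 genes that reached 1000 TPM in each reporter-negative library, with the 5 genes as coloured symbols and the dotted line at equal change. All 5 lie above the dotted line, as do 53 of the 75 genes in total, and *S100a5* is the point farthest from it, at -3.48 and -0.14. The values are from TPM as deposited. Scaled to the mature OSN genes, the median difference between the lines for the 5 genes was -0.066.

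Related genes were examined next, from family lists that were chosen with earlier results of these data known. In the stomatin family, *Stoml3* and *Stom* were far above the other members. *Stoml1*, which encodes a stomatin-like protein with a lipid transfer domain, was at 119.9 and 25.7 TPM in GFP-negative and GFP-positive cells, and at 125 and 67.4 TPM in tdTomato-negative and tdTomato-positive cells (log2 fold changes -2.18 and -0.88). *Stoml2*, whose product is in mitochondria, changed least, with log2 fold changes of -0.76 and -0.38. Of the 4 family members above 10 TPM somewhere, 3 were at least 2-fold lower in the GFP line and 2 in the tdTomato line, against 46.5% and 19.9% of all genes tested. Both counts include *Stoml3* and *Stom* themselves, so that the family adds only *Stoml1* in the GFP line.

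*Calm3* changed in the same direction as *Calm2*, from a much lower level. It was at 674 and 245 TPM in the GFP line and at 659 and 593 TPM in the tdTomato line. Its log2 fold changes were -1.46 and -0.15, each closer to 0 than those of *Calm2* at -1.73 and -0.37. The share of *Calm2* in the summed TPM of both genes was 84.3% in GFP-negative and 81.6% in GFP-positive cells, and 84.5% in tdTomato-negative and 82.4% in tdTomato-positive cells. The share was thus slightly lower with the reporter in both lines.

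The calmodulin-like genes moved the other way. *Calml4*, which encodes a light chain of brush border myosin, increased from 14.4 to 82.3 TPM in the GFP line and from 22.9 to 281 TPM in the tdTomato line (log2 fold changes 2.44 and 3.56). *Calml3*, a gene of epithelial cells, was listed at 0 without the reporter, and was at 17 TPM in GFP-positive and 2.61 TPM in tdTomato-positive cells. *Calm4* and *Calm5* were listed at 0 throughout. For comparison, 11.6% of all genes tested were at least 2-fold higher with the reporter in the GFP line, and 14.6% in the tdTomato line.

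Members of the S100 family did not move together. Of the 16 listed, 13 reached 10 TPM. In the GFP line 7 of these were at least 2-fold lower and 5 at least 2-fold higher, and in the tdTomato line the counts were 5 and 5. Of all genes tested, 46.5% were lower and 11.6% higher in the GFP line, and 19.9% and 14.6% in the tdTomato line, so that the count of lower members in the GFP line was near the background. *S100a5* had the highest TPM of the family in GFP-negative, tdTomato-negative, and tdTomato-positive cells. *S100a8* and *S100a9*, which encode calprotectin of neutrophils, came next in GFP-negative cells, at 2347 and 3215 TPM, and fell to 12 and 33.8 TPM in GFP-positive cells. In the tdTomato line they decreased from 687 and 997 TPM to 0.754 and 2.59 TPM. *S100a4* decreased too, with log2 fold changes of -4.32 and -5.80, as did *S100a10* (-1.18 and -2.64) and *S100z* (-1.86 and -1.97).

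The members at least 2-fold higher in both lines were *S100a1*, *S100a6*, *S100a11*, and *S100a14*. *S100a11* reached 1470 TPM in GFP-positive cells, above *S100a5*, and 1535 TPM in tdTomato-positive cells, from 376 and 386 TPM. *S100a1* increased from 53.8 to 516 TPM and from 46.5 to 579 TPM, and *S100a6* from 137 to 508 TPM and from 117 to 303 TPM. *S100a14* was listed at 0 in GFP-negative cells and at 50.4 TPM in GFP-positive cells, and was at 2.31 and 6.48 TPM in the tdTomato line. *S100a16* was higher in the GFP line (6.44 and 109.6 TPM), with a log2 fold change of 0.15 in the tdTomato line. *S100a13* had log2 fold changes of 0.71 and 0.018. *S100a3*, which lies next to *S100a4* and *S100a5* on chromosome 3, decreased from 17.8 to 3.22 TPM in the GFP line and increased from 5.19 to 21.3 TPM in the tdTomato line. *S100a7a*, *S100b*, and *S100g* did not reach 10 TPM in any library.

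**Figure D5:**
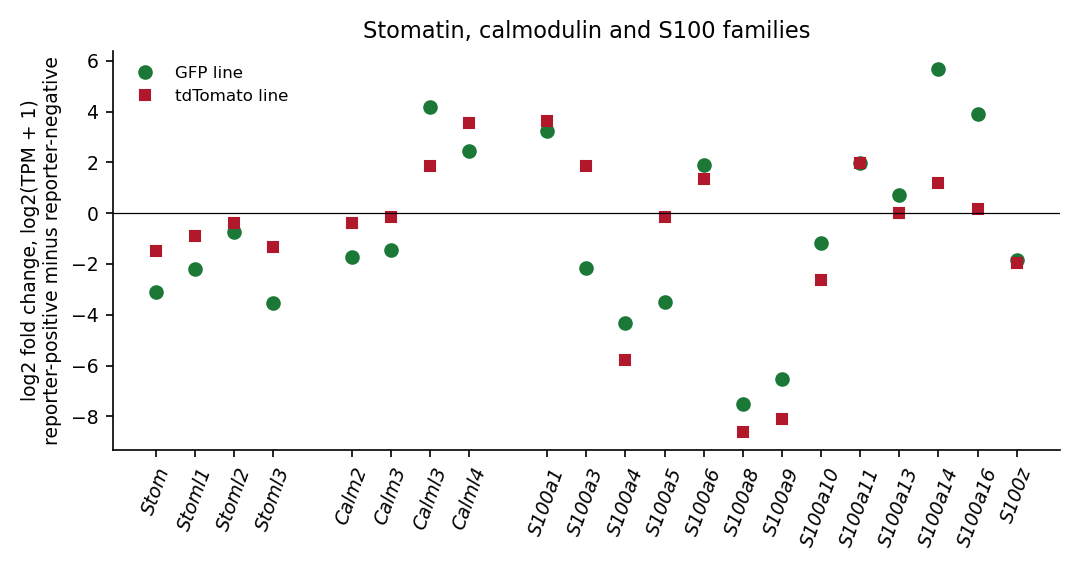
Log2 fold change of the stomatin, calmodulin, and S100 genes examined that reached 10 TPM, with green circles for the GFP line and red squares for the tdTomato line. The circle and the square of *S100a5* are 3.34 apart, at -3.48 and -0.14, while those of *S100a11* lie on each other at 1.96 and 1.99. The points of *Calml3*, and that of *S100a14* in the GFP line, are against libraries listed at 0 and depend on the pseudocount.

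Genes whose products are known to bind calmodulin were taken from a list of 24, of which 15 reached 10 TPM. In GFP-positive cells 14 of the 15 were at least 2-fold lower, against 46.5% of all genes tested, and the exception, *Camkk1*, a kinase that activates other calmodulin-dependent kinases, had a log2 fold change of -0.72. The median was -2.16, and the lowest value was that of the channel subunit *Cnga4* (-3.32). In tdTomato-positive cells 5 of the 15 were at least 2-fold lower, against 19.9%, with a median of -0.81. These were *Cnga2* and *Cnga4*, *Pde1b* and *Pde1c*, which encode calcium-dependent phosphodiesterases, and *Ppp3cc*, a catalytic subunit of calcineurin. The lowest was *Pde1b* (-1.66), and the highest was *Camkk1* (0.46). With the median-ratio scaling, 11 of the 15 were at least 2-fold lower in the GFP line, against 20.6% of all genes. In the tdTomato line 4 were, against 16.9%. Scaled to the mature OSN genes, 0 were lower in either line. The list shares *Cnga2*, *Cnga4*, *Cngb1*, and *Pde1c* with the list of mature OSN genes. *Calm2*, at -1.73 and -0.37, was closer to 0 than the median of its targets in both lines.

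The genes with the most similar pattern to each member were found by the distance between log2(TPM + 1) profiles over the 4 libraries, each centred on its own mean. With 4 libraries, such a likeness is a description only. The nearest to *Omp* was *Ebf1* (distance 0.031), a transcription factor of OSNs, with log2 fold changes of -3.08 and -1.18, followed by *Ttll6*, *Kcns3*, *Chga*, and *Pag1*. The nearest to *Stom* were *Lingo2*, *Adam19*, *Drd2* (the dopamine D2 receptor), *Pou2f2*, and *Hcn2*, at distances of 0.062 to 0.13. Those of *Stoml3* were *Stk10*, *Cnga4*, *Chga*, *Ttc9b*, and *Umodl1*, from 0.091 to 0.25. *Calm2* had the closest match of all, *Klc3* (0.02), a kinesin light chain, followed by *Prkacb*, *Ankrd13a*, *4933421O10Rik*, and *Kifap3*.

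*S100a5* had the most distant neighbors. The nearest, *B230217C12Rik*, was at a distance of 0.19, with log2 fold changes of -3.31 and -0.34. *Kcnmb3*, a subunit of calcium-activated potassium channels, came next at 0.27. It was at 241 and 22.8 TPM in GFP-negative and GFP-positive cells, and at 246 and 239 TPM in tdTomato-negative and tdTomato-positive cells. *5730403I07Rik*, *Olfr171*, and *Dnm1*, the neuronal dynamin gene, followed at 0.30 to 0.32. Among the 5 genes themselves, *Omp* and *Stom* were closest (0.218), then *Omp* and *Stoml3* (0.312), and *Stoml3* and *Calm2* were farthest apart (1.49).

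Markers of other MOE cells moved in the same comparisons. Their counts stand against 11.6% of all genes at least 2-fold higher and 46.5% lower in the GFP line, and 14.6% higher and 19.9% lower in the tdTomato line. In GFP-positive cells, all 9 markers of Bowman glands were at least 2-fold higher, and their summed TPM was 4305 in GFP-negative and 159219 in GFP-positive cells. In the tdTomato line 6 of the 9 were higher and 3 lower, with sums of 7173 and 55442. For sustentacular cells, 8 of 8 markers were higher in the GFP line (sums of 1059 and 7766), and 4 were higher and 2 lower in the tdTomato line (1723 and 6948). For multiciliated cells, 6 of 8 and 8 of 8 were higher, with sums of 594 and 1771 and of 519 and 5899. In the last list, *Ccdc153* was listed at 0 in GFP-negative cells and *Mcidas* in tdTomato-negative cells. Markers of immature OSNs were lower like those of mature OSNs, with 10 of 10 at least 2-fold lower in the GFP line and 5 of 10 in the tdTomato line. Of 8 immune markers, 7 and 6 were at least 2-fold lower and 0 and 1 higher, with sums of 7927 and 2125 in the GFP line and 2784 and 1761 in the tdTomato line. The higher marker, *Lyz2* of myeloid cells, had most of the TPM of this list in the reporter-positive cells, with 1581 and 2043 TPM in the GFP line (log2 fold change 0.37) and 707 and 1707 TPM in the tdTomato line (1.27). Markers of horizontal basal cells went in opposite directions, 4 of 5 higher in the GFP line (63 and 629) and 5 of 5 lower in the tdTomato line (152 and 29.1). Markers of globose basal cells, microvillar cells, ensheathing cells, and endothelial cells and fibroblasts summed to at most 255 TPM in any library. The part of these cells in the values of the 5 genes was not tested. *Stom* is also a red blood cell gene, and of the erythroid markers the 4 hemoglobin genes were listed at 0 in all libraries and the other 3 summed to 112, 4.95, 32.4, and 8.61 TPM in GFP-negative, GFP-positive, tdTomato-negative, and tdTomato-positive cells.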

How the data were processed

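RNA-seq was performed on cells sorted by FACS with and without GFP (enhancer 1 line) or tdTomato (enhancer 2 line), with 1 library per group. TPM values of 24421 genes, for build mm10, were deposited by the authors. Their processing notes name Trimmomatic 0.36 and Salmon 1.4.0, while the methods of the paper name Hisat2 and Cufflinks. The gene annotation is not given in the sources used here. The depth is unknown, and intervals that need it were not given.

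TPM values were used as deposited. Fold changes were differences of log2(TPM + 1), which understates changes of low genes, and counts of genes cover the 13010 that reached 10 TPM in 1 or more libraries. The calculation was tested on simulated data with known changes and little noise, which says nothing about the reliability of 1 library per group. Named genes were the 5 genes, their families, the extremes of the calmodulin target and mature OSN lists and any of their genes at least 2-fold higher, the 10 highest genes of each reporter-negative library, the 5 most similar genes of each member, and genes overlapping a member. The members and lists were chosen with earlier results of these data known. Other list genes are named to describe their list, and some genes of the rule are not reported here. Positions and transcripts are from GENCODE M21, principal transcripts only, and promoters from RefSeq. Python 3.11.15, NumPy 2.4.6, pandas 2.3.3, and Matplotlib 3.10.9 were used.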

Additional observations from a re-analysis of the deposited data

Results flagged for a closer look

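Among the genes that the rule for named genes selected, the log2 fold changes of 4 had opposite signs in the GFP and tdTomato lines, and these differences were not tested, as each group has 1 library. *S100a3* had -2.15 and 1.85, *Scgb1c1*, a secretoglobin gene among the 10 highest of tdTomato-negative cells, 5.23 and -3.46, *Camkk1* -0.72 and 0.46, and *Capn5*, the gene around *Omp*, 0.044 and -1.22. The median of all genes in the GFP line was -0.92, so the sign of *Camkk1* there can change with the scaling. *Capn5* was nearly unchanged in the GFP line, at 12.4 and 12.8 TPM. Signs were also opposite for *Ckb* (-2.32 and 0.33), *Pcp4l1* (-1.76 and 0.88), and *Rplp1* (0.14 and -1.01), which were named after their values were seen.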

How the results depend on the processing

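No paired analysis was possible because no group has more than 1 library. For the medians of the 5 genes and the counts, values that moved by more than 0.58 on the log2 scale (1.5-fold) or counts that moved by more than 1.5 times are given, and 54 others stayed within these limits. Scaled to the 15 mature OSN genes, which shifts the median of all genes by 2.79 in the GFP line and 0.84 in the tdTomato line, the median of the 5 genes was -0.21 and -0.27, the difference between the lines reversed to -0.066, and 0 of the 5 genes and 0 calmodulin targets were at least 2-fold lower in either line. *Calm2* reversed to 1.17 in the GFP line, and was -0.85 there with the median-ratio scaling. With the median-ratio scaling, which shifts the median by 0.84 and 0.15, the median of the 5 genes was -2.23 in the GFP line, the difference between the lines 1.19, and *S100a5* in the tdTomato line 0.016. Of all genes tested in the GFP line, 20.6% were then at least 2-fold lower, and 6.99% when scaled to the mature OSN genes (11.1% in the tdTomato line). In the tdTomato line, 3 mature OSN genes were lower with the median-ratio scaling, against 16.9% of all genes. After rescaling without the 19 highest genes that are no members, 3 were also lower, against 18.4%. Also in the tdTomato line, calmodulin targets lower numbered 3 with a pseudocount of 10 (12.7% of all genes), 9 with no minimum TPM (19.9%), and 10 at 1.5-fold (33.5%), and 14 mature OSN genes were lower at 1.5-fold. At 4-fold in the tdTomato line, 0 of the 5 genes, 0 mature OSN genes, and 0 calmodulin targets were, against 10.4% of all genes. The cause was not tested. The unknown depth limits low values, such as those of *S100a3*.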

Other observations

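After *S100a5*, the largest differences between the lines among the 75 abundant genes were those of *Ckb* and *Pcp4l1*, which were lower in GFP-positive cells and had more TPM in tdTomato-positive than in tdTomato-negative cells. The genes named here were chosen after their values were seen. *Ckb*, which regenerates ATP from phosphocreatine, was at 2117 and 423 TPM in GFP-negative and GFP-positive cells, and at 1731 and 2174 TPM in tdTomato-negative and tdTomato-positive cells. *Pcp4l1* was at 1054 and 311 TPM, and at 1015 and 1866 TPM. At the other end of the 75 genes, the ribosomal protein genes *Rplp1*, *Rps23*, and *Rps16* had lower log2 fold changes in the tdTomato line than in the GFP line (differences of -1.15, -1.08, and -1.01). *Gfy*, which encodes a Golgi protein of OSNs, was at 3081 and 293 TPM in the GFP line and at 4722 and 2314 TPM in the tdTomato line, and had the fourth largest difference between the lines.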
